A study of Mus musculus with 8 samples.

Results

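Matrix metalloproteinases (MMPs), ADAMTS proteinases and the tissue inhibitors of metalloproteinases (TIMPs) were examined in a mouse neuroblastoma line and in a clone of it that the labels describe as ChAT-expressing. ChAT is choline acetyltransferase, which synthesises the neurotransmitter acetylcholine. Members were all genes whose symbol is Mmp, Adamts or Timp followed by its number and that had a non-control probe on the array, whatever their signal. They came to 45 genes of 37208 on the array, with 22 Mmp, 19 Adamts and 4 Timp genes read by 59 of 55681 probes. Of 46 genes with such a symbol in the RefSeq gene table, Mmp27 was the one without a probe.

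The 8 one-colour arrays formed 4 groups of 2: parental N18TG2 cells untreated, parental cells with all-trans retinoic acid (RA, a vitamin A derivative used to differentiate neuroblastoma cells), the 2/4 clone untreated and the 2/4 clone with RA. Cells got RA at 1 µM with 1% serum, cultures grew in 10% serum, and the clone alone received the selection drug G418 (200 µg/mL). How long RA acted, and which medium the untreated cells had, are not stated, so a change of serum and RA cannot be told apart. The clone is a single clone, and G418, clonal origin and ChAT cannot be told apart in it. Nothing says that the arrays of a group were separate cultures, and where they were not, the p-values reflect technical spread within 1 culture. The extraction protocol names hippocampus although the samples are labelled as a cell line. All 10 markers of neuroblastoma and sympathoadrenal cells were well above background on every array, whereas of 8 markers of hippocampal neurons and astrocytes Camk2a, Gfap and Aqp4 were above it on every array, Slc17a7 on 2 and Slc1a3 on 1, and Neurod6, Prox1 and Gad1 on none. The Chat probe differed between clone and parental line by 0.38 ± 1.27 on the log2 scale untreated (limma adjusted p = 0.897) and by 3.40 ± 1.27 with RA (adjusted p = 0.0995), so the label was not borne out by a call, and whether the probe reads the introduced sequence was not tested.

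All arrays lay on 1 slide, and its 2 rows paired parental RA with the untreated clone and the untreated parental line with the clone under RA. Slide row therefore cannot be told apart from line at a given treatment, or from RA in a given line, and it cancels in the averages over treatments or lines. The difference between the RA responses of the lines compares whole rows, so it cannot be told apart from slide row either. The array clone RA replicate 1 stood apart, where 71.7% of probes were well above background (47.7% to 62.8% elsewhere), and with a replicate correlation across genes of 0.9625 in its group against 0.983 to 0.987. Values below are log2 of the background-subtracted intensity after each array's 75th percentile was subtracted, so that 0 is that percentile. A gene was tested if a probe was well above background on at least 2 arrays, and was called at a limma adjusted p under 0.05 over all 26247 genes tested.

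MMPs are zinc proteinases that are made as inactive precursors and cut collagens, gelatin, elastin and other matrix proteins. Most are secreted, and the membrane-type members are held at the cell surface. ADAMTS proteinases are secreted enzymes with thrombospondin-type repeats, among them the proteoglycan-cutting aggrecanases and the procollagen N-proteinases. TIMPs bind the active site of these enzymes and block it. In nervous tissue the balance of proteinases and inhibitors is known to shape neurite outgrowth and the perineuronal matrix.

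Of the 45 members, 24 were tested (8 Mmp, 12 Adamts and all 4 Timp genes), 9 were well above background on 1 array, and 12 on none. By any of their probes, 10 members were above background on all 8 arrays: Mmp11, Mmp17, Mmp23, Mmp24, Adamts4, Adamts8, Adamts14, Timp1, Timp2 and Timp3. More members were above background in the clone than in the parental line: 28 and 20 on the clone RA arrays, 18 and 19 on the untreated clone arrays, 14 and 17 on the parental RA arrays, and 12 and 16 on the untreated parental arrays. Over all probes the shares above background were, in the same order, 71.7% and 61.3%, 58.1% and 58.4%, 54.3% and 62.8%, and 47.7% and 55.4%. The part of these shares in the member counts was not tested. The count of 28 came from clone RA replicate 1, which alone carried 8 of the 9 members seen on 1 array (Mmp1b, Mmp8, Mmp12, Mmp13, Mmp21, Mmp28, Adamts5 and Adamts6). The share of all probes above background differed in the same way on that array, and its part in those detections was not tested. Detection also set which members could be tested: 6 of the 24 passed through clone arrays alone (Mmp2, Mmp9, Mmp19, Adamts12, Adamts16 and Timp4) and Adamts1 through parental arrays alone, so these had to differ, and counts over the 24 support nothing about the families.

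**Figure D1:**
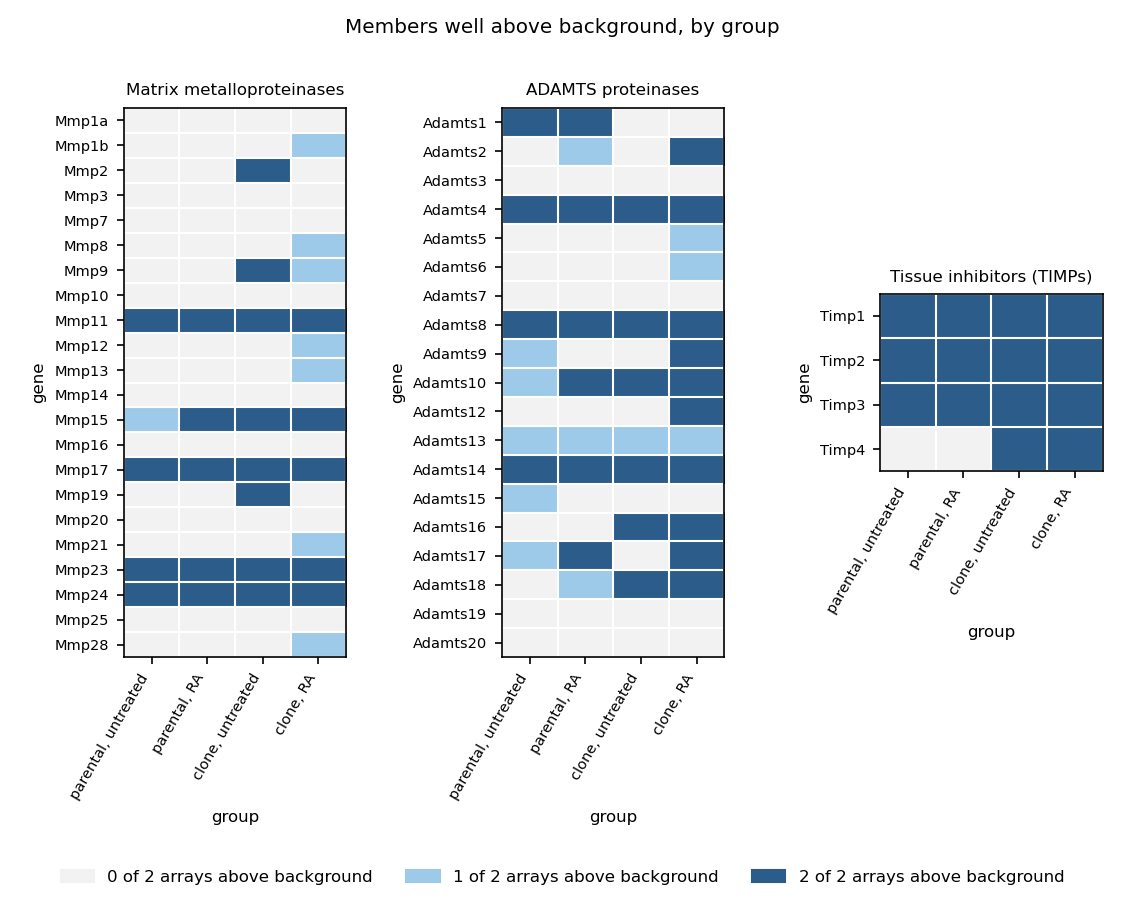
Rows are the 45 members by family and columns the 4 groups; the shade gives on how many of the 2 arrays of a group any probe of the gene was well above background. Timp1, Timp2 and Timp3 are dark in every group, and most Mmp genes are pale throughout.

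A run of 10 neighbouring genes on chromosome 9 holds the interstitial collagenases (Mmp1a, Mmp1b, Mmp8 and Mmp13), the stromelysins Mmp3 and Mmp10, the macrophage elastase Mmp12, the matrilysin Mmp7, the enamel enzyme Mmp20 and Mmp27. Of the 9 with probes, none was tested: Mmp8, Mmp12, Mmp13 and Mmp1b were above background on clone RA replicate 1 alone and the others on no array. On that array Mmp1b read -2.36, against -6.56 to -8.30 on the other 7, so the array and the gene's level cannot be told apart there. AP-1, a transcription factor known to act on several of these genes, binds sites that read TGANTCA. That motif was found within the 250 bases before the start site in 8 of the 10 cluster genes, in 0 of the 22 other members with a promoter in the RefSeq table (GRCm38.p6), and in 6.75% of all 32851 promoters there. Neither Mmp8 nor Mmp27 held it in this window. The 100 bases before each start site, 5′ to 3′, are shown for those 8 because they are the untested genes that share a sequence feature, with TGANTCA in capitals (both strands searched).

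Mmp13: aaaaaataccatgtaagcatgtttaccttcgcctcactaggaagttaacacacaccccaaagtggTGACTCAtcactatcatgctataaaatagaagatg

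Mmp12: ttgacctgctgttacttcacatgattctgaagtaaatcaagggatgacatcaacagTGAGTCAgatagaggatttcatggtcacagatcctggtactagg

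Mmp1b: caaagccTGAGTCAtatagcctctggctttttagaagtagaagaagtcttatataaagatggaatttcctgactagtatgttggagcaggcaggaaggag

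Mmp3: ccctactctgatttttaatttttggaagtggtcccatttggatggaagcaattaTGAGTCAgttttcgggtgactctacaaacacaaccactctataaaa

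Mmp1a: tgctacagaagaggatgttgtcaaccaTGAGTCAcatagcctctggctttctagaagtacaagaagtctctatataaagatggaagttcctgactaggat

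Mmp10: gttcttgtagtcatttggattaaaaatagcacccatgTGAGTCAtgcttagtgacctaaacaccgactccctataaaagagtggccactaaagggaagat

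Mmp20: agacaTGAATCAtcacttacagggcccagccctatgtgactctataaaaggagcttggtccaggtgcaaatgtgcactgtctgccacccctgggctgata

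Mmp7: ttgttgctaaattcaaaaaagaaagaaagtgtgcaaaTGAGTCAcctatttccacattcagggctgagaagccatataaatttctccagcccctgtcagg

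In GRCm38.p6 these stretches lie at chr9:7272414-7272513, plus strand (Mmp13), chr9:7347274-7347373, plus strand (Mmp12), chr9:7388027-7388126, minus strand (Mmp1b), chr9:7445722-7445821, plus strand (Mmp3), chr9:7464041-7464140, plus strand (Mmp1a), chr9:7502242-7502341, plus strand (Mmp10), chr9:7628131-7628230, plus strand (Mmp20) and chr9:7691990-7692089, plus strand (Mmp7). The motif began 35 bases before the start site in Mmp13, 44 in Mmp12, 46 in Mmp3, 63 in Mmp10 and Mmp7, 73 in Mmp1a, 93 in Mmp1b and 95 in Mmp20. A TATA box (TATAAA, both strands) lay in the same 250 bases of 7 of the 10 cluster genes and 2 of the 22 other members, against 12.4% of all promoters. The GC box (GGGCGG, both strands) showed the opposite split, with 0 of the 10 cluster genes and 16 of the 22 others, against 32.7% of all promoters. Matches are descriptions of these windows and show neither binding nor its absence.

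Between the untreated lines, 10 of 24 tested members were called, 8 higher and 2 lower in the clone, where 9.84% of all genes were called (6.14% higher, 3.7% lower). The members' median difference was 1.15 on the log2 scale against 0.11 over all genes, but it turned to -0.19 with normexp background correction and to -0.31 with no filter on dim probes. With normexp correction the median over all genes was -0.19 as well. Under RA, 12 members were called, 9 higher and 3 lower, against 23.2% of all genes (12.9% higher, 10.2% lower), with a median of 1.26 against 0.11. Averaged over treatments, which cancels slide row, 17 were called, 14 higher and 3 lower, against 27.7% of all genes (16.1% higher, 11.6% lower), and 8 of 8 tested Mmp genes, 7 of 12 Adamts and 2 of 4 Timp genes were among them. Among those called, Mmp2, Mmp9, Mmp19 and Adamts16 were tested through clone arrays alone and Adamts1 through parental arrays alone. The split by family therefore supports nothing about the families. The counts of members called untreated, with RA and on average were each lower with normexp correction, as given below. When only the 9 members whose chosen probe was above background on all 8 arrays were kept, with all genes filtered alike, 6 were called untreated against 12.2% of all genes, 5 under RA against 29.7% and 7 on average against 33.7%. Leaving out 1 array gave 4 to 6 untreated calls for each of the 4 untreated arrays (clone replicates 5 and 4, parental replicates 6 and 6), and 11 average calls without clone untreated replicate 1. Within a slide row the lines also differed in treatment, so line and RA are mixed there. Untreated clone minus parental RA and clone RA minus untreated parental had the same sign for 16 of the 17 called on average. The exception was Mmp15 (-0.93 and 7.01). The average difference is the mean of those values, so agreement in sign was partly built in and supports nothing. These cultures were read in bulk, so fewer cells of a type and less RNA per cell cannot be told apart. Fibroblast markers (7 genes) summed to 109% to 145% of the 75th percentile in the clone and 58.5% to 118% in the parental line, ranges that overlap, with 4 to 5 of them above background in the clone, 2 to 4 in the parental line, and Lum and Thy1 on no array. Among them Col1a1 read -1.61 and -1.49 on the untreated clone and -2.69 and -3.07 on clone RA, against -3.70 and -4.32 on the untreated parental and -5.47 and -5.23 on parental RA arrays. Col1a2 read -3.28 and -3.77 on the untreated clone and -0.75 and -0.86 on clone RA, against -6.09 and -4.41 on the untreated parental and -5.60 and -5.22 on parental RA arrays. Both collagen genes were thus higher on every clone array than on every parental array. Dcn went the other way within each treatment, at -1.22 and -1.97 on the untreated clone and -1.89 and -3.00 on clone RA. Its parental readings were -0.74 and -1.20 untreated and -1.09 and -1.60 with RA. Pdgfra overlapped between the untreated lines and was higher in the clone with RA (-2.11 and -1.31 against -2.34 and -2.51). Col3a1 was above background on the clone RA arrays alone. Macrophage markers (7 genes) summed to 1270% to 3086% in the clone and 1051% to 1301% in the parental line, again overlapping, with Csf1r, Tyrobp, Itgam and Tmem119 above background on all arrays. The 3086% was clone RA replicate 1, and the other clone arrays reached at most 1557%. Itgam was the brightest of this list on every array (3.18 to 4.85). Tyrobp was lower on every clone array (means of -3.09 untreated and -4.08 with RA against -0.89 and -0.90 in the parental line). Tmem119 was higher on every clone array (means of 0.06 and -0.07 against -1.90 and -4.15). The samples are labelled as a cell line and its clone, and these markers do not show that such cells were present. Whether any were, and their part in the line differences, was not tested.

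**Figure D2:**
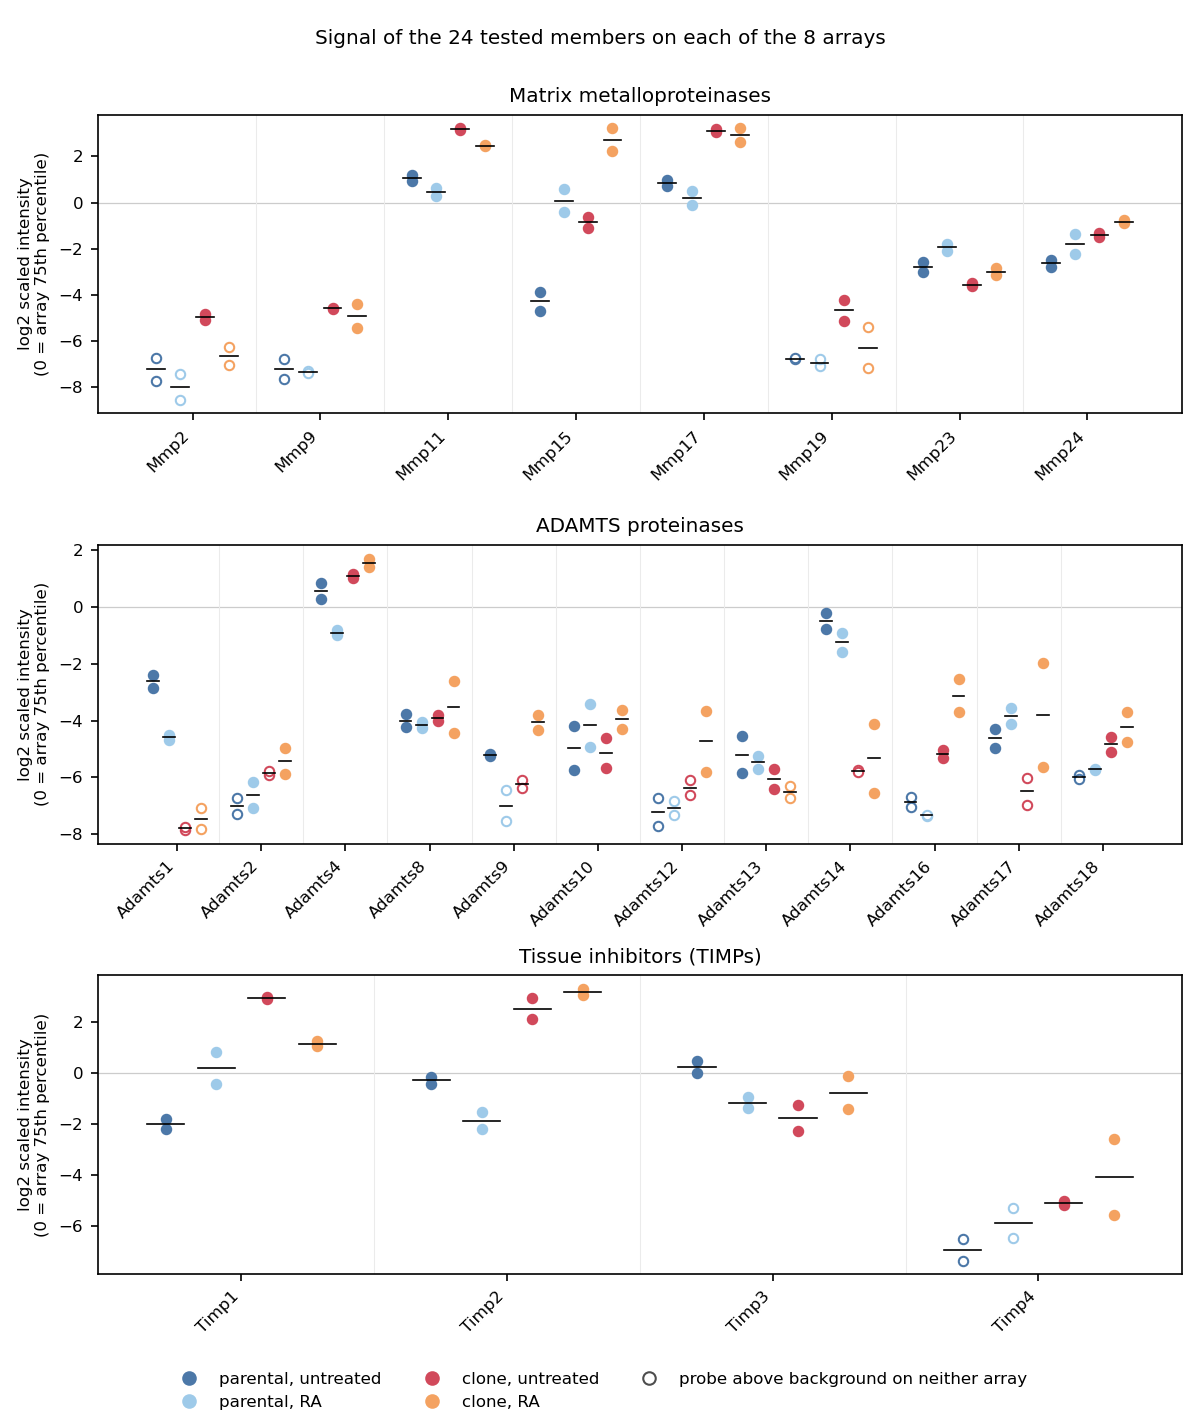
Each panel shows a family, each column a tested member, each point an array (log2 scaled intensity, 0 at the array's 75th percentile) and each short bar the mean of the 2 arrays of a group; open points are groups in which the chosen probe was above background on neither array. Timp1, Timp2, Mmp11 and Mmp17 separate the untreated lines, and Mmp15 climbs with RA in both.

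Among the inhibitors, Timp1 and Timp2 were higher in the untreated clone, and Timp3 and Timp4 were not called in any of the 7 comparisons as fitted. Timp1, a secreted inhibitor known to be induced by growth factors and cytokines, read -1.81 and -2.20 on the untreated parental arrays, 0.83 and -0.43 on parental RA, 3.00 and 2.92 on the untreated clone, and 1.25 and 1.06 on clone RA. All 4 groups were separate, with the untreated parental arrays lowest and the untreated clone arrays highest. Without RA, Timp1 was 31.2-fold higher in the clone, or 4.96 ± 0.43 on the log2 scale (± is the standard error; n = 2 arrays in each group; limma adjusted p = 0.000818), and this call held under all 16 alternatives. With RA the difference was 0.96 ± 0.43 (adjusted p = 0.157; 95% interval -0.06 to 1.97). Arrays with RA differed from those without by 2.20 ± 0.43 in the parental line (adjusted p = 0.0702). The clone's RA difference was of opposite sign, -1.80 ± 0.43 (adjusted p = 0.0654). Set against each other, where slide row cannot be told apart, the responses differed by -4.01 ± 0.61 (limma adjusted p = 0.0665), which missed the threshold. It passed when only probes above background on all arrays were tested (adjusted p = 0.018) and without clone RA replicate 2 (adjusted p = 0.0304).

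Timp2, which also takes part in the activation of pro-Mmp2 at the cell surface, read -0.14 and -0.42 on the untreated parental arrays, -1.53 and -2.21 on parental RA, 2.95 and 2.11 on the untreated clone, and 3.30 and 3.07 on clone RA. Every clone array was above every parental array. The clone was 7.03-fold higher untreated (2.81 ± 0.39, adjusted p = 0.00585) and 33.3-fold higher with RA (5.06 ± 0.39, adjusted p = 0.000352), and both calls held under all 16 alternatives. A second Timp2 probe gave 1.63 and 3.37 for the same differences, smaller but of the same sign. With RA, Timp2 differed by -1.59 ± 0.39 in parental cells (adjusted p = 0.119) and by 0.66 ± 0.39 in clone cells (adjusted p = 0.385); the test between them gave 2.24 ± 0.55 (adjusted p = 0.152).

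Timp3, the matrix-bound inhibitor that also blocks ADAMTS enzymes and ADAMs, read 0.45 and 0.01 on the untreated parental arrays, -0.96 and -1.39 on parental RA, -1.26 and -2.27 on the untreated clone, and -0.13 and -1.40 on clone RA. The untreated lines did not overlap, whereas the arrays with RA did. The untreated difference of -2.00 ± 0.52 had an adjusted p of 0.0606, and with RA it was 0.41 ± 0.52 (adjusted p = 0.612). The untreated difference passed without either clone RA array (adjusted p = 0.0197 each), with slide side as a block (0.0156), when only the groups compared were fitted (0.0367) and when only probes above background on all arrays were tested (0.0246). Timp4 read -6.53 and -7.37 on the untreated parental arrays, -5.32 and -6.48 on parental RA, -5.01 and -5.17 on the untreated clone, and -2.60 and -5.58 on clone RA. It was above background on the 4 clone arrays alone, and with RA the clone read at least 3.4-fold higher (adjusted p = 0.203, not called), a value that rests on clone RA replicate 1: without that array the fitted difference was 0.32 instead of 1.80. Timp4 passed untreated without clone RA replicate 1 (adjusted p = 0.0408), and on average with slide side as a block (0.0275) or without clone RA replicate 2 (0.00187).

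Promoter sequence is shown for some of the members with line or RA differences that the text turns on, all of them holding GGGCGG. The 150 bases before the start site are given, with GGGCGG or its reverse complement in capitals. Of the 16 non-cluster members with that motif in 250 bases, these are Timp1, Timp2, Mmp11, Mmp15, Adamts1 and Adamts14. Mmp17 and Adamts4, which also differed between the lines, are not among the 16. The motif is thus shared through the choice of stretches.

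Timp1: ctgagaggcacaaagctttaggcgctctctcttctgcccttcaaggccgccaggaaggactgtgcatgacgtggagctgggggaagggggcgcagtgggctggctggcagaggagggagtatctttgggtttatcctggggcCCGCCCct

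Timp2: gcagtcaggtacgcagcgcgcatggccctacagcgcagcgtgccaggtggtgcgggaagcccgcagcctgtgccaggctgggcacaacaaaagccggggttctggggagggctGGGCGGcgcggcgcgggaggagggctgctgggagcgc

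Mmp11: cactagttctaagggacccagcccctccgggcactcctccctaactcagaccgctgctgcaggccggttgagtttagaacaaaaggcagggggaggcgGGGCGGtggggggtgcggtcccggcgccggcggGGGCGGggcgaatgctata

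Mmp15: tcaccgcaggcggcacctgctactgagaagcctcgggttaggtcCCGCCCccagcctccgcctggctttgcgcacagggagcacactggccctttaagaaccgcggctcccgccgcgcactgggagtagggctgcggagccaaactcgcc

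Adamts1: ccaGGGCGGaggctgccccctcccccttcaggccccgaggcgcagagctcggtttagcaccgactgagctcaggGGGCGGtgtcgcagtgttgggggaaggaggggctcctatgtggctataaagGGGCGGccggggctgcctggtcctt

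Adamts14: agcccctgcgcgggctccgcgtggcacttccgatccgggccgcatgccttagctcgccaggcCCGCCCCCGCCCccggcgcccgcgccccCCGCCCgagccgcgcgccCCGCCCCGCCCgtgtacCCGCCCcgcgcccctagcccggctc

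The stretches are chrX:20870016-20870165, plus strand (Timp1), chr11:118355412-118355561, minus strand (Timp2), chr10:75932503-75932652, minus strand (Mmp11), chr8:95352146-95352295, plus strand (Mmp15), chr16:85803114-85803263, minus strand (Adamts1) and chr10:61273420-61273569, minus strand (Adamts14) of GRCm38.p6. Timp1, Timp2 and Mmp15 hold 1 match each, Mmp11 2, Adamts1 3 and Adamts14 6. A direct repeat of AGGTCA with any 5 bases between, which retinoic acid receptors are known to bind, was (both strands) in 0 of the 32 members with a promoter and in 0.00913% of all promoters within 250 bases, and AGGTCA alone in 4 cluster genes and 0 of the others, against 14% of all promoters. No match says only that these letters are not in this window.

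Among the proteinases, Mmp11 and Mmp17 were higher in the clone in both treatments. Mmp11, a stromelysin activated inside the cell by furin-like convertases, read 1.18 and 0.96 on the untreated parental arrays, 0.29 and 0.61 on parental RA, 3.14 and 3.22 on the untreated clone, and 2.51 and 2.43 on clone RA. Each clone array exceeded each parental array, 4.32-fold untreated (2.11 ± 0.27, adjusted p = 0.00388) and 4.06-fold with RA (2.02 ± 0.27, adjusted p = 0.00255), and both calls held under all 16 alternatives. Its second probe gave 2.31 and 2.03. Mmp17, a membrane-type MMP held by a lipid anchor, read 0.99 and 0.70 on the untreated parental arrays, -0.11 and 0.49 on parental RA, 3.05 and 3.17 on the untreated clone, and 2.61 and 3.22 on clone RA. It too was higher on every clone array, by 2.27 ± 0.34 untreated (adjusted p = 0.00822) and by 2.72 ± 0.34 with RA (adjusted p = 0.0022). The untreated call of Mmp17 ended without clone untreated replicate 1 (adjusted p = 0.058) or 2 (0.0777) or parental untreated replicate 2 (0.065), at differences of 2.13 to 2.33, whereas the call with RA held under all 16 alternatives.

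Mmp24, a membrane-type MMP found mainly in the nervous system, read -2.80 and -2.48 on the untreated parental arrays, -2.24 and -1.36 on parental RA, -1.30 and -1.52 on the untreated clone, and -0.77 and -0.89 on clone RA. Clone arrays were higher within each treatment, by 1.23 ± 0.35 untreated (adjusted p = 0.0813) and 0.97 ± 0.35 with RA (adjusted p = 0.0943), and the average of 1.10 ± 0.25 was called (adjusted p = 0.0177). Mmp23, which is tethered by its signal anchor, went the other way: it read -3.03 and -2.57 on the untreated parental arrays, -1.80 and -2.09 on parental RA, -3.51 and -3.61 on the untreated clone, and -2.85 and -3.16 on clone RA. Its average difference was -0.91 ± 0.21 (adjusted p = 0.0182), with -1.06 ± 0.30 under RA (adjusted p = 0.0417) and -0.76 ± 0.30 untreated (adjusted p = 0.177). The Mmp23 call under RA was lost under 12 of 16 alternatives, leaving out any 1 array included (adjusted p up to 0.136 in those), and the average call of Mmp24 under 4 of 15 and of Mmp23 under 5 of 15.

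Mmp14, the membrane-type enzyme known as the main cell-surface activator of pro-Mmp2, was above background on no array. Its probe read -6.83 and -7.81 on the untreated parental arrays, -7.54 and -8.47 on parental RA, -6.34 and -6.39 on the untreated clone and -7.12 on clone RA replicate 2, and its spot on clone RA replicate 1 was an outlier and was dropped. It was not tested, nor were Mmp16 and Mmp25 of the same class, which were also above background on no array.

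Mmp15, another transmembrane MMP, was the member called for RA in both lines. It read -4.69 and -3.88 on the untreated parental arrays, -0.42 and 0.57 on parental RA, -0.61 and -1.09 on the untreated clone, and 2.22 and 3.23 on clone RA. Arrays with RA lay above arrays without it in each line, the untreated clone arrays overlapped none of the untreated parental arrays, and parental RA lay near the untreated clone. RA went with a 20.6-fold difference in the parental line (4.36 ± 0.51, adjusted p = 0.0161) and an 11.9-fold difference in the clone (3.58 ± 0.51, adjusted p = 0.0217). The difference between those responses was -0.79 ± 0.73 (adjusted p = 0.727), and the average RA difference was 3.97 ± 0.36 (adjusted p = 0.00781). The clone exceeded the parental line by 3.44 ± 0.51 untreated (adjusted p = 0.00772) and by 2.65 ± 0.51 with RA (adjusted p = 0.0117). On 1 of the 2 untreated parental arrays the probe was not above background, so the parental RA fold rests partly on dim signal, and with normexp correction it was 2.68 on the log2 scale (adjusted p = 0.0834), with 1.82 between the untreated lines (adjusted p = 0.0769).

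The size of the Mmp15 responses moved little when arrays were left out, from 3.87 to 4.86 in the parental line and from 3.07 to 4.08 in the clone, but the calls did not all hold. In the parental line the call ended without either untreated clone array (adjusted p = 0.0576 each), parental RA replicate 1 (0.0975) or 2 (0.103), or parental untreated replicate 1 (0.151) or 2 (0.114). In the clone it ended without clone untreated replicate 1 (0.128) or 2 (0.179), and held without clone RA replicate 1 (4.08, adjusted p = 0.0235). Between the untreated lines the call was lost on leaving out clone untreated replicate 1 (0.0648) or 2 (0.052), or replicate 1 of the untreated parental line (0.0603), and the call with RA without parental RA replicate 1 (0.0646). The average RA call was lost on leaving out clone untreated replicate 1 (0.052) or 2 (0.0561), or replicate 1 of the untreated parental line (0.0535). On the same arrays Cyp26b1, an RA-degrading enzyme that RA induces, differed by 5.44 ± 0.60 in the parental line and 6.38 ± 0.60 in the clone (adjusted p = 0.0156 and 0.0117).

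The gelatinases Mmp2 and Mmp9, which cut denatured collagen and basement membrane collagen, were dim. Mmp9 read -6.78 and -7.63 on the untreated parental arrays, -7.33 and -7.39 on parental RA, -4.58 and -4.60 on the untreated clone, and -5.43 and -4.42 on clone RA. It was above background on 3 clone arrays and on no parental array, so only bounds apply, taken against the dimmest signal that counts as well above background on those arrays: at least 1.42-fold higher untreated (adjusted p = 0.011) and at least 1.92-fold higher with RA (adjusted p = 0.00809). With RA the Mmp9 call ended with normexp correction (0.55, adjusted p = 0.617, a size below the bound) and with quantile scaling (1.3, adjusted p = 0.323). Mmp2 read -6.74 and -7.72 on the untreated parental arrays, -7.43 and -8.55 on parental RA, -4.85 and -5.08 on the untreated clone, and -7.06 and -6.27 on clone RA. It stood above background on both untreated clone arrays and nowhere else, at least 1.09-fold higher than the untreated parental line (adjusted p = 0.0377). Mmp19, a secreted MMP, showed the same detection: -6.81 and -6.76 on the untreated parental arrays, -7.09 and -6.79 on parental RA, -4.22 and -5.13 on the untreated clone, and -5.39 and -7.19 on clone RA.

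Mmp19 was called on average alone (1.38 ± 0.42, adjusted p = 0.0493), and not untreated (at least 1.33-fold higher, adjusted p = 0.076). Its untreated difference passed when only the groups compared were fitted (limma adjusted p = 0.0237) and with quantile scaling (0.0389). With quantile scaling it was also called lower with RA in the clone (0.0496). With normexp correction the untreated differences of Mmp9, Mmp2 and Mmp19 were 0.03, 0.08 and -0.01, against 2.62, 2.26 and 2.11 without it, so these fitted sizes rest on the handling of background. Each normexp value lay below its bound. The untreated call of Mmp2 ended without any 1 of the 4 untreated arrays (adjusted p = 0.069 to 0.189) and that of Mmp9 without either untreated clone array (0.0768 and 0.0862) or parental untreated replicate 2 (0.0727). Mmp19 lost its average call without any 1 array except clone RA replicate 2 (adjusted p = 0.0552 to 0.153 in those). Between RA and no RA, neither Mmp2 nor Mmp9 was called in a line: Mmp2 in the clone gave at least 1.76-fold lower (adjusted p = 0.116).

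**Figure D3:**
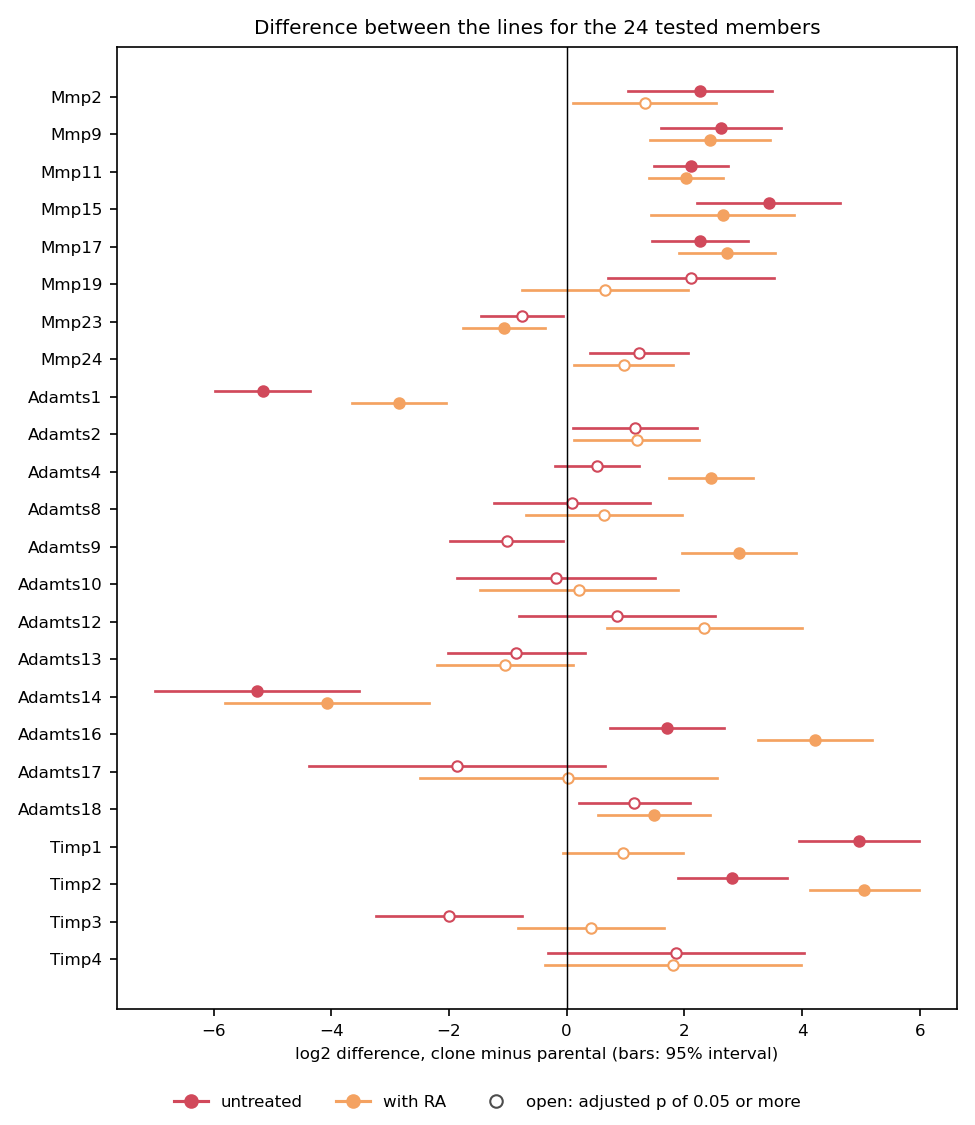
Points are clone minus parental log2 differences for each tested member, untreated and with RA, with 95% intervals; filled points have an adjusted p under 0.05. Timp2 and Mmp11 sit to the right of 0 in both treatments, Adamts1 and Adamts14 to the left, and Timp1 moves from 4.96 untreated to 0.96 with RA.

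Among the ADAMTS genes, Adamts1 was lower in the clone in both treatments, the chosen probe of Adamts14 was lower but its other probe was not, and 4 genes were called higher under RA. Adamts1, a proteoglycan-cutting enzyme known to respond to inflammatory signals, read -2.40 and -2.85 on the untreated parental arrays, -4.50 and -4.69 on parental RA, -7.85 and -7.73 on the untreated clone, and -7.07 and -7.81 on clone RA. All parental arrays and none of the clone arrays were above background, which makes it at least 8.69-fold lower in the untreated clone (adjusted p = 0.000346) and at least 2.27-fold lower with RA (adjusted p = 0.00176). With normexp correction both calls ended, at -1.66 untreated (adjusted p = 0.0732) and -0.44 with RA (adjusted p = 0.643), sizes below those bounds. In the parental line it differed by -1.97 ± 0.34 with RA (adjusted p = 0.0543), which passed without either clone RA array (adjusted p = 0.0247 each). Its neighbour Adamts5, a major aggrecanase, was above background on clone RA replicate 1 alone and was not tested. Adamts5 read -6.86 and -7.66 on the untreated parental arrays, -7.21 and -7.33 on parental RA, -5.73 and -6.98 on the untreated clone, and -4.12 and -6.45 on clone RA.

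Adamts14, a procollagen N-proteinase, read -0.22 and -0.80 on the untreated parental arrays, -0.91 and -1.60 on parental RA, -5.72 and -5.81 on the untreated clone, and -4.11 and -6.54 on clone RA. This probe was above background on all parental arrays and on 1 clone array, and was at least 37.5-fold lower in the untreated clone (adjusted p = 0.00594) and lower by 4.07 ± 0.73 with RA on the log2 scale (adjusted p = 0.00885). The gene's other probe was above background on the 4 clone arrays and on no parental array, and gave at least 2.91-fold higher in the clone with RA and no fold untreated. On clone RA that probe read -2.86 on replicate 1, the array that stood apart, and -5.56 on replicate 2. The 2.91-fold value thus rests largely on replicate 1. The direction for Adamts14 as a gene is therefore unsettled, and the mean of both probes was not called (-2.13, adjusted p = 0.132 untreated). Adamts14 also lost its untreated call on leaving out clone untreated replicate 2 (0.0566) or replicate 1 of the untreated parental line (0.0506), and its call with RA without parental RA replicate 1 (0.0601). Adamts2, of the same enzymatic class, read -6.71 and -7.30 on the untreated parental arrays, -7.06 and -6.16 on parental RA, -5.91 and -5.79 on the untreated clone, and -4.97 and -5.87 on clone RA. It was called on average (1.17 ± 0.32, adjusted p = 0.0323) but was above background on 3 arrays by any probe, and its average turned to -0.1 with normexp correction. The Adamts2 call was also lost without clone RA replicate 1 (0.0615), either untreated clone array (0.087 and 0.102), parental RA replicate 1 (0.0871) or either untreated parental array (0.0557 and 0.102).

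Adamts4, an aggrecanase that also cuts brevican in brain, read 0.83 and 0.29 on the untreated parental arrays, -0.84 and -1.0 on parental RA, 1.15 and 1.01 on the untreated clone, and 1.39 and 1.69 on clone RA. Only the parental RA arrays were below 0. The clone was 5.49-fold higher with RA (2.46 ± 0.30, adjusted p = 0.00192), a call that held under all 16 alternatives, against 0.52 ± 0.30 untreated (adjusted p = 0.359). With RA, Adamts4 differed by -1.48 ± 0.30 in parental cells (adjusted p = 0.0777) and by 0.46 ± 0.30 in clone cells (adjusted p = 0.425); the test of one response against the other gave 1.94 ± 0.42 (adjusted p = 0.126).

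Adamts9, which cuts versican and aggrecan, read -5.24 and -5.17 on the untreated parental arrays, -7.52 and -6.45 on parental RA, -6.08 and -6.37 on the untreated clone, and -3.80 and -4.32 on clone RA. The clone RA arrays were above all others. With RA the clone was at least 3.5-fold higher than the parental line (adjusted p = 0.00319) and at least 3.21-fold higher than the untreated clone (adjusted p = 0.0363), while in the parental line RA gave at least 1.59-fold lower (adjusted p = 0.101). With normexp correction both calls ended (0.64, adjusted p = 0.509, and 0.61, adjusted p = 0.733), as they did with quantile scaling (2.10, adjusted p = 0.0527, and 1.23, adjusted p = 0.303). The normexp sizes lay below those bounds. The test between the RA responses gave 3.94 ± 0.58 (adjusted p = 0.065) and passed without clone RA replicate 2 alone (0.0202). The RA call in the clone ended without clone RA replicate 1 (0.103), clone untreated replicate 1 (0.162) or 2 (0.239) or either untreated parental array (0.0759 each). Its average line difference of 0.95 ± 0.29 (adjusted p = 0.0478) was lost under 10 of 14 alternatives, clone RA replicate 1 left out among them (0.0979).

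Adamts16, a secreted member linked to kidney and blood pressure biology, read -6.69 and -7.04 on the untreated parental arrays, -7.37 and -7.30 on parental RA, -5.30 and -5.04 on the untreated clone, and -2.54 and -3.70 on clone RA. It was above background on the 4 clone arrays alone, at least 6.73-fold higher than the parental line with RA (adjusted p = 0.000789). RA in the clone gave 2.05 ± 0.41 (adjusted p = 0.0418), which ended without any 1 array except clone RA replicate 2 (adjusted p = 0.0726 to 0.216 in those, and 1.47 without clone RA replicate 1). Untreated, it was called (adjusted p = 0.046) but no fold can be given against the parental background, the call ended without any 1 untreated or parental RA array (0.0793 to 0.243), and the difference turned to -0.24 with normexp correction. Its second probe was above background on no array. With normexp correction the difference with RA was 1.11 (adjusted p = 0.234), a size below its bound, and the RA difference in the clone 0.78 (adjusted p = 0.639). Adamts18 read -5.91 and -6.07 on the untreated parental arrays, -5.71 and -5.72 on parental RA, -4.58 and -5.09 on the untreated clone, and -3.70 and -4.76 on clone RA. All clone arrays were above all parental arrays, though with normexp correction the untreated difference turned from 1.15 to -0.15. The Adamts18 probe was above background on all clone arrays, on neither untreated parental array and on 1 of the 2 parental RA arrays. The untreated 1.15 is thus set partly by the parental background. The clone was higher by 1.49 ± 0.40 with RA (adjusted p = 0.0376) and 1.32 ± 0.28 on average (adjusted p = 0.0142). With RA the Adamts18 difference was 0.49 with normexp correction (adjusted p = 0.666) and 0.47 with quantile scaling (adjusted p = 0.336). Its call with RA held without clone RA replicate 2 and in no other leave-out (0.96, adjusted p = 0.137 without clone RA replicate 1; 0.0622 to 0.124 in the others), and the average call was lost on leaving out clone untreated replicate 1 (0.0586) or replicate 2 of the untreated parental line (0.0509).

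The other 5 tested Adamts genes (8, 10, 12, 13 and 17) were not called in any of the 7 comparisons as fitted. Between the lines their differences ran from -1.86 ± 1.06 for Adamts17 untreated (adjusted p = 0.353) to 2.34 ± 0.70 for Adamts12 with RA (adjusted p = 0.0528), where the parental probe was not above background. That Adamts12 difference was 1.27 without clone RA replicate 1 (adjusted p = 0.14), and it passed without clone RA replicate 2 (adjusted p = 0.00345), with the deposited log2 values (0.0485) and with quantile scaling (0.0298). Adamts17 spread widely on clone RA, at -1.97 and -5.64. Its average line difference was -0.92, and -1.83 without clone RA replicate 1. With RA the line difference was 0.03, and -1.80 without that array. All groups share 1 estimate of the gene's spread, so the wide clone RA pair also entered the untreated adjusted p of Adamts17.

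In response to RA, 1 of 24 members was called in the parental line, 1 higher and 0 lower, against 1.13% of all genes (0.541% higher, 0.591% lower). In the clone 3 were called, all higher (Mmp15, Adamts9 and Adamts16), against 4.63% of all genes (2.58% higher, 2.05% lower). Averaged over the lines, Mmp15 alone was called, against 5.83% of all genes (3.13% higher, 2.7% lower). The parental count was 3 without either clone RA array and 0 without any other single array. The clone count was 0 without either untreated clone array, 1 without either untreated parental array and 6 without clone RA replicate 2. The averaged count was 2 without clone RA replicate 1, 6 without clone RA replicate 2 and 0 without either untreated clone array or parental untreated replicate 1. The median member difference was -0.15 in the parental line and 0.51 in the clone, against 0.02 in both over all genes. The clone median was smaller without clone RA replicate 1, the array that stood apart. Single members moved both ways without that array, such as Adamts17 from 2.68 to 0.85 and Mmp15 from 3.58 to 4.08. The difference between the RA responses cannot be told apart from slide row. In it 0 members were called by limma and 7 had an unadjusted p under 0.05, where 0.206% of all genes were called (0.122% higher, 0.0838% lower). Without clone RA replicate 1, limma called 0 members here too, with 8 at an unadjusted p under 0.05, whereas without clone RA replicate 2 there were 6, Timp1, Timp3, Adamts1, Adamts9 and Adamts16 among them.

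**Figure D4:**
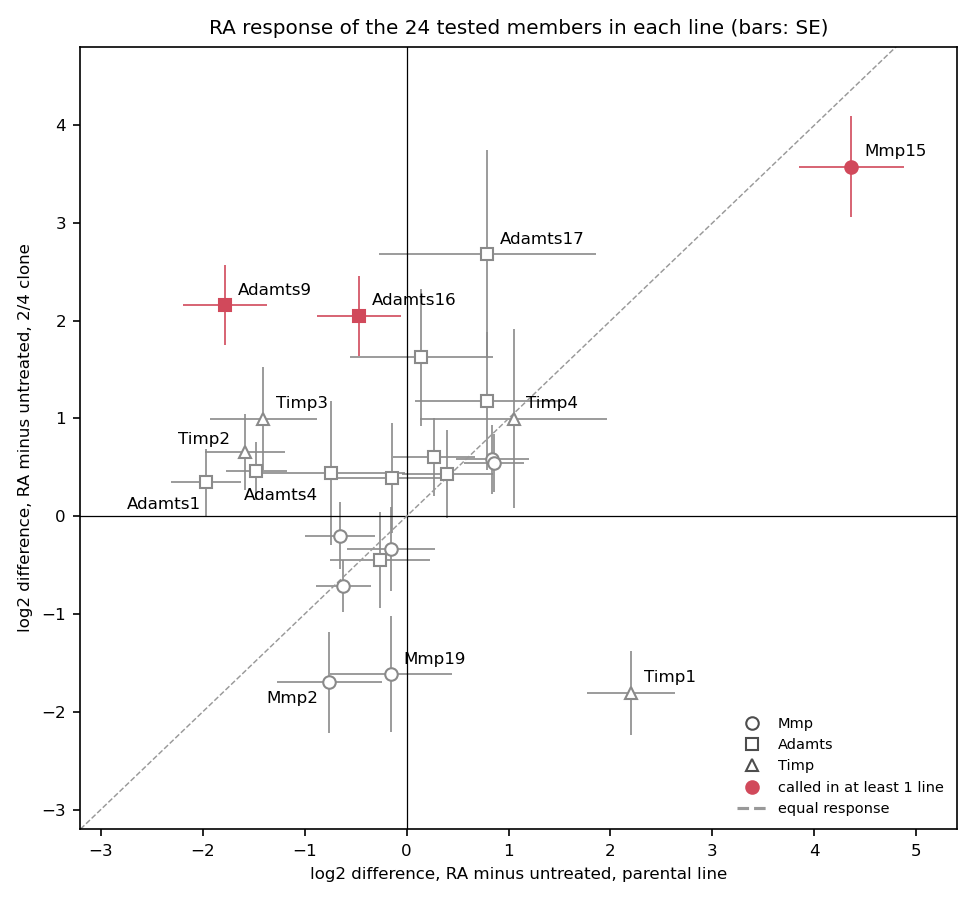
The horizontal axis is the RA minus untreated log2 difference in the parental line and the vertical axis that in the 2/4 clone, with standard errors, for the 24 tested members; filled red symbols were called in at least 1 line. Mmp15 lies near the line of equal response at 4.36 and 3.58, and Timp1 (2.20, -1.80) and Adamts9 (-1.78, 2.16) lie in opposite corners. A difference between the responses of the lines cannot be told apart from slide row.

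The partners and substrates of these enzymes were read from lists chosen for their function. Of 8 tested plasminogen activators and their inhibitors, a system that activates pro-MMPs, 1 was higher and 1 lower in the untreated clone, where 9.84% of all genes were called, and 1 was higher and 3 lower with RA, where 23.2% were. The median of the list was -0.79 untreated and -0.42 with RA, against 0.11 over all genes. Serpine2, a serine protease inhibitor, was above background on neither untreated clone array and at least 27.6-fold lower there (adjusted p = 0.000497), and with RA it was lower by 2.68 ± 0.42 (adjusted p = 0.00505). Serpini1, the neuroserpin gene, was higher by 3.04 ± 0.33 with RA (adjusted p = 0.00129). Plgrkt, a plasminogen receptor, was higher by 1.46 untreated (adjusted p = 0.0329), and Serpinf2, the plasmin inhibitor, was lower by 4.54 with RA (adjusted p = 0.00593), where 1 of 2 clone arrays was above background. Plaur, the urokinase receptor, fell by 1.90 on the log2 scale with RA in the clone (standard error 0.34, adjusted p = 0.032).

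Of 10 tested substrates, 2 were higher and 3 lower in the untreated clone, and 4 higher and 2 lower with RA (over all genes 6.14% higher and 3.7% lower, then 12.9% and 10.2%), with medians of 0.57 and 1.04. The chondroitin sulphate proteoglycans that aggrecanases cut split in direction. Vcan (versican) was lower by 3.58 ± 0.39 untreated and 2.16 ± 0.39 with RA (adjusted p = 0.00196 and 0.00854). Ncan (neurocan) was higher by 2.96 ± 0.27 and 2.60 ± 0.27 (adjusted p = 0.00102 and 0.00103), and Bcan (brevican) by 1.33 ± 0.32 and 1.95 ± 0.32 (adjusted p = 0.045 and 0.00601). Nid1, a basement membrane linker, was lower by 2.55 ± 0.40 untreated (adjusted p = 0.00919) and 1.52 ± 0.40 with RA (adjusted p = 0.0349), and Eln, elastin, by 1.24 untreated (adjusted p = 0.0436). Vwf, the clotting factor cut by Adamts13, was higher by 2.11 with RA (adjusted p = 0.00317). Comp, a cartilage matrix protein, was higher by 3.19 ± 0.34 with RA (adjusted p = 0.00108) and rose by 1.63 ± 0.34 with RA in the clone (adjusted p = 0.0448).

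Of 9 tested other regulators, 2 were higher and 1 lower in the clone in each treatment (9.84% and 23.2% of all genes were called), with medians of 0.18 and 0.56. Papln, a matrix protein of the ADAMTS-like kind, was higher by 2.24 ± 0.39 untreated and 3.06 ± 0.39 with RA (adjusted p = 0.0133 and 0.00219), and Adamtsl2 was lower by 1.95 ± 0.33 and 1.92 ± 0.33 (adjusted p = 0.0123 and 0.00713). Lrp1, the receptor that takes up proteinase and inhibitor complexes, was higher by 2.29 ± 0.31 with RA (adjusted p = 0.00276). Spock2, a testican proteoglycan, was higher by 1.36 ± 0.32 in the untreated clone (adjusted p = 0.041) and fell by 1.68 with RA in the clone (standard error 0.32, adjusted p = 0.0365). The convertases and procollagen proteinases had 1 lower of 6 tested untreated, and 1 higher and 1 lower with RA, beside 9.84% and 23.2% of all genes, with medians of -0.09 and -0.44. Pcsk6, a proprotein convertase, differed by -3.56 ± 0.28 untreated (adjusted p = 0.000568) and -3.24 ± 0.28 with RA (adjusted p = 0.0005), and Pcolce, an enhancer of procollagen processing, by 2.06 with RA (adjusted p = 0.00255). Of 11 membrane ADAMs, relatives that shed cell-surface proteins, limma called 0 untreated, where 3 had an unadjusted p under 0.05, and 4 with RA, all higher (Adam15 by 0.96, Adam33 by 1.23, Adam19 by 1.62 and Adam22 by 1.95), with medians of 0.21 and 0.78, again beside 9.84% and 23.2% of all genes called. For RA in the parental line 0 genes of these 5 lists were called.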

How the data were processed

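RNA of each sample was labelled with Cy3 and hybridised to a 1-colour Agilent mouse array. Per the file headers, Agilent Feature Extraction 10.7.3.1 subtracted the background from each spot's signal, and the deposited processed intensity is the result. The same files flag spots well above background. The series value table deposited by the authors holds log2 values, which equalled log2 of the processed signal minus a constant per array. Slide and scan entries, of unit other, come per the file headers.

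From these, log2 intensity minus the array's 75th percentile over non-control spots was computed. The 3671 control spots of each array and the 1168 outlier spots over all arrays were left out, spots of a probe were averaged, and 0 non-control spots were saturated. A probe was kept if well above background on at least 2 arrays, and a gene was read by its brightest kept probe. limma 3.58.1 in R 4.3.3 fitted 1 mean per group over all 8 arrays, with 4 residual and 3.00 prior degrees of freedom, 7 contrasts and Benjamini-Hochberg adjustment over all genes tested. The script was tested on simulated data. A bound ("at least N-fold") sets the brighter group's mean against, on each array of the dimmer group, the higher of the lowest signal well above background and the probe's own signal. It holds for the main background handling alone, and normexp correction gave sizes below it for several dim members. The number of arrays limits the precision. The 75th percentile intensity was 264.8 to 1264 per array.

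Genes were named by RefSeq accession. The array files name build mm9, and promoters with their coordinates are from the RefSeq table of GRCm38.p6. Arrays were grouped by their titles. Every member called in any comparison, and 10 members chosen by role, are given on every array; others are given by counts. Genes of the function lists called between 2 groups are named, except 1 that is not reported here; those called in averages alone are not named. The members and lists were chosen with earlier results of these data known. Alternatives were normexp (offset 50), quantile scaling, the deposited log2 table, 2 other filters, the mean of a gene's probes, slide side as a block, a fit of only the groups compared, and leaving out each array.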

Additional observations from a re-analysis of the deposited data

How the results depend on the processing

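Of 44 calls of a member in a comparison, 14 held under every alternative and 30 were lost under at least 1. No paired analysis was possible by replicate number because the labels give none; with slide side as a block 42 calls held and 2 were lost. With normexp correction 21 calls held, 21 were lost and 2 turned, and the counts were 5 and 6 between the lines untreated and with RA, 8 on average, and for RA 0 in the parental line (6 at an unadjusted p under 0.05, limma) and 1 in the clone. It also shifted the median of all genes by -0.31 untreated between the lines. A change of sign was looked for only in differences with an unadjusted limma p under 0.05 as first fitted. Of these, Adamts16 (-0.24), Adamts18 (-0.15), Adamts2 (-0.31) and Mmp19 (-0.00598) turned with normexp correction between the untreated lines, and Adamts2 (-0.0957) on average. Signs of the other differences under the alternatives are not given. With quantile scaling Adamts2 turned to -0.12 with RA between the lines. Keeping only probes above background on all arrays left 9 members, of which 6, 5 and 7 were called between the lines (untreated, with RA, average), 2 and 1 for RA (parental, clone), 1 in the difference between the responses and 0 for the RA average (4 unadjusted). The deposited log2 values gave 2 calls for RA in the parental line. With no filter limma called 0 for RA in the parental line (9 unadjusted) and 0 in the clone (8 unadjusted), and 0 in the clone when only the groups compared were fitted. Leaving out 1 array gave 4 to 14 calls between the untreated lines, 9 to 17 with RA, 11 to 20 on average, 0 to 3 and 0 to 6 for RA (parental, clone), 0 to 6 for their difference and 0 to 6 for the RA average. Causes were not tested. Members near background have little signal to measure, and their sizes rest on background handling.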

Other observations

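Timp1, Timp3 and Timp4 each lie within a synapsin gene (Syn1, Syn3 and Syn2) in the RefSeq table, and synapsins coat synaptic vesicles. Syn1 was higher in the clone by 2.47 ± 0.30 untreated (limma adjusted p = 0.00322) and by 3.71 ± 0.30 with RA (adjusted p = 0.000402), where its nested gene Timp1 differed by 4.96 and 0.96. Syn2 was higher by 1.35 untreated (adjusted p = 0.0423) and 2.81 with RA (adjusted p = 0.00145), and Syn3 by 2.09 with RA (adjusted p = 0.00537), while Timp4 and Timp3 were not called. For Adamts8, the chosen probe gave 0.63 between the lines with RA, whereas its other probe, above background on the parental RA arrays alone, gave at least 3.07-fold lower in the clone.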
